A study of Mus musculus with 2 samples.

Results

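The mitochondrially encoded genes were all 37 symbols that start with mt- among the 55450 features of the count tables. They comprise the 2 ribosomal RNA (rRNA) genes, the 13 messenger RNA (mRNA) genes and the 22 transfer RNA (tRNA) genes of the mouse mitochondrial chromosome, and each of the 37 had at least 1 unique molecular identifier (UMI) in each library. The data are droplet single-cell RNA counts of EMT6 tumours, a mouse mammary carcinoma line injected at 200000 cells into BALB/c mice. All animals received LLY-283, an inhibitor of the arginine methyltransferase PRMT5, at 50 mg/kg on a cycle of 3 days on and 4 days off, together with the PARP inhibitor Olaparib at 50 mg/kg. The Combo animals additionally received an antibody against PD-1 at 200 µg every 3 days. Each group is 1 library of tumours pooled from 3 mice, so no difference between the groups has a replicate check, no test was possible, and the intervals given are exact 95% intervals that cover counting error only.

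Mitochondrial DNA is transcribed from both strands as long precursors, which are cut, largely at the tRNAs that lie between the other genes, into rRNAs, mRNAs and tRNAs. The 2 rRNAs, mt-Rnr1 and mt-Rnr2, form the RNA core of the small and the large mitochondrial ribosome subunit, and the mRNAs encode subunits of complexes I, III, IV and V of oxidative phosphorylation, whose other subunits are encoded in the nucleus. In single-cell work the percent of mitochondrial UMIs is commonly used as a filter on cell quality. The limit of 20% used here to compare cells was set for the present work and is not taken from the study.

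The Olaparib + LLY-283 library held 147214934 UMIs, of which 1694236 (1.15%) were mitochondrial, and Combo held 162522700, of which 2668734 (1.64%) were mitochondrial. Cells with at least 200 genes (16110 and 7538) were classed by UMIs of marker genes that are not mitochondrial, and classes with at least 50 cells in each library were compared: tumour (9789 and 2609 cells), macrophage or monocyte (855 and 532), neutrophil (726 and 1367) and fibroblast (272 and 70). Of the 7 tumour markers, 3 were highest in the tumour class, against 10 of 12, 8 of 9 and 8 of 9 for macrophages, neutrophils and fibroblasts. Where values are given in pairs, the Olaparib + LLY-283 value comes first. Another 3535 and 2447 cells had no class, and 808 and 395 had markers of several. When cells were also clustered, 7040 tumour cells of both libraries together fell in tumour clusters and 3906 in clusters of no class. In turn, 2218 cells without a class by markers fell in tumour clusters. The median tumour cell held 10107 UMIs in Olaparib + LLY-283 and 48118 in Combo, and 39 cell barcodes occurred in both libraries.

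Several of the mRNA genes have near-identical nuclear copies, and these sequences bear on every level given for them. On chromosome 1 of GRCm38 (minus strand), a row of 7 unprocessed pseudogenes lies within chr1:24611535-24616197. Over the aligned bases, Gm28661 was identical to mt-Co2 (681 bases), Gm10925 to mt-Atp6 (678), Gm28437 to mt-Co3 (783), Gm10222 to mt-Nd4l (294) and Gm28439 to the first 876 of the 1378 bases of mt-Nd4. Gm29216 matched the last 483 bases of mt-Co1 with 1 mismatch, and Gm28438 (chr1:24612775-24613119) matched 345 bases of mt-Nd3 (chrM:9459-9806, plus strand) with 1 mismatch. That mismatch was T3C, counted from 1 at the 5′ end with the base of the reference mitochondrial gene first. Which base the mitochondrial DNA of the EMT6 cells and BALB/c mice carries was not tested. It is shown in capitals in the first 60 bases of both transcripts (chrM:9459-9518 and chr1:24613060-24613119), because this was the 1 pair on chromosome 1 in which the copy had the higher count.
mt-Nd3: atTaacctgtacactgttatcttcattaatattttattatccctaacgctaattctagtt
Gm28438: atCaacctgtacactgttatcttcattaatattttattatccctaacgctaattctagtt
The transcripts of mt-Co2 and Gm28661 have no difference to mark, as their last 60 shared bases (chrM:7634-7693 in mt-Co2) show.
mt-Co2: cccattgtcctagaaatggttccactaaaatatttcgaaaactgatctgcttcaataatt
These sequences are from the GENCODE M21 reference transcripts, and none was read from the cells studied here. No annotated nuclear transcript shared a 90-base window with mt-Cytb, mt-Nd1, mt-Nd6, mt-Atp8, mt-Rnr1 or mt-Rnr2.

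The mitochondrial UMIs were held by few genes. mt-Cytb, the only mitochondrially encoded subunit of complex III, had 460106 UMIs in Olaparib + LLY-283 and 588958 in Combo, which is 27.2% and 22.1% of the mitochondrial UMIs. mt-Rnr2 had 26.1% and 29.8%, which was second in Olaparib + LLY-283 and first in Combo, and mt-Nd1, a core subunit of complex I, had 14.9% and 12.4%. These 3 genes together held 68.1% and 64.2%. By UMIs per kilobase of gene, mt-Cytb ranked first in both libraries with 402191 and 514823 UMIs, and mt-Rnr2 was second. UMIs of a 3′ library need not grow with gene length, so this ranking is not one of RNA amounts. How well each RNA was captured was not tested.

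Among the rRNAs, mt-Rnr1 differed more between libraries than mt-Rnr2, at 8.34% of the mitochondrial UMIs in Olaparib + LLY-283 and 13.6% in Combo. Both rRNAs together had 34.5% and 43.3%. Of the 7 complex I mRNAs, mt-Nd4 had 7.93% and 7.70%, mt-Nd2 7.63% and 7.39%, and mt-Nd5 1.70% and 1.46%. The single mRNA of the minus strand, mt-Nd6, stood at 0.204% and 0.153%. In complex IV, mt-Co1 had 4.72% and 4.36% whereas mt-Co3 had 0.102% and 0.104% and mt-Co2 0.0668% and 0.0593%. In complex V, mt-Atp8 had 0.726% and 0.636% and mt-Atp6, whose gene overlaps that of mt-Atp8, had 0.242% in both libraries. At the low end were mt-Nd4l with 382 and 488 UMIs and mt-Nd3 with 53 and 65.

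**Figure D1:**
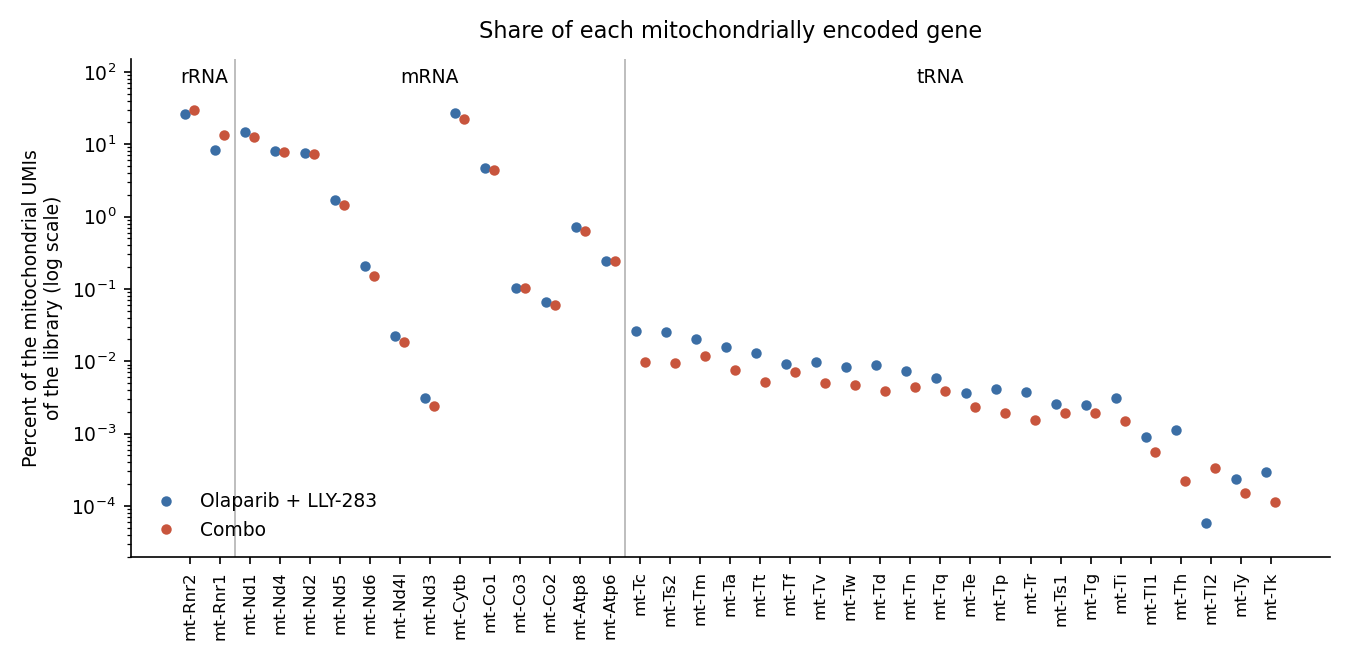
Share of each of the 37 genes in the mitochondrial UMIs of its library, in percent on a log scale, with rRNAs, mRNAs (by complex) and tRNAs separated by grey lines. The points run from 29.8% (mt-Rnr2, Combo) down to 1 UMI (mt-Tl2, Olaparib + LLY-283), and mt-Nd3 lies at the level of the tRNAs.

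Of the 6 mRNAs with the fewest UMIs, 5 had a nuclear copy over their 3′ end, and the other was mt-Nd6. mt-Co2, mt-Atp6, mt-Co3, mt-Nd3 and mt-Nd4l, in which 97.7% to 99.9% of all 90-base windows also occurred in a nuclear transcript, together held 0.436% and 0.426% of the mitochondrial UMIs. In mt-Nd4, 61.1% of the windows were shared but none in the last 300 bases, and the gene had 134421 and 205386 UMIs. mt-Co1 went the other way, with 33.4% of its windows shared, including all that lie in its last 300 bases, and it had 80006 and 116350 UMIs. Cell Ranger counts a read only where it is assigned to 1 gene, so reads that match a gene and its copy equally well can be lost from both. How many reads were lost in this way was not tested, and the levels of these 5 mRNAs cannot be compared with those of mt-Cytb or mt-Nd1. The same holds for the level of mt-Co1, since all windows in its last 300 bases are shared.

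Counts on the copies were low for all but 1. Gm28661 had 106 and 157 UMIs, Gm28437 had 93 and 200, Gm10925 had 67 and 124, Gm29216 had 48 and 72, and Gm28439 and Gm10222 had 13 to 16. In contrast, Gm28438 had 21321 and 41580 UMIs, against the 53 and 65 of mt-Nd3. Their reference sequences differ at 1 of the aligned bases. Whether the UMIs counted on Gm28438 came from the nuclear copy or from mitochondrial RNA was not tested. For the other 6 pairs the mitochondrial gene had the higher count.

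**Figure D2:**
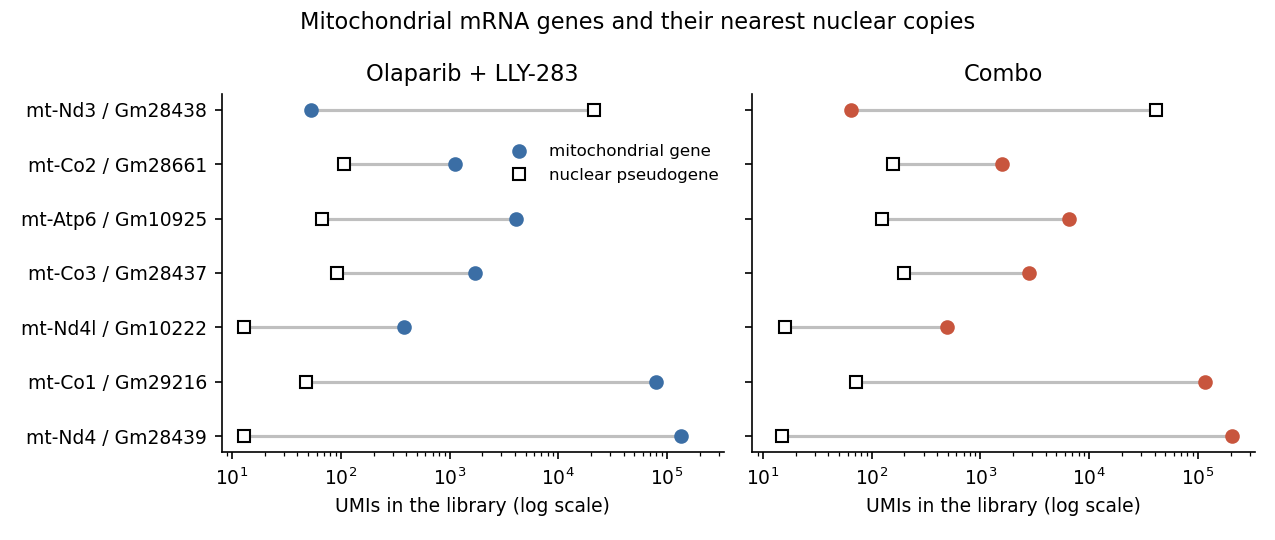
UMIs per library (log scale) of 7 mitochondrial mRNA genes (filled circles) and of their nearest annotated pseudogene on chromosome 1 (open squares). The circle lies to the right of the square in 6 of the 7 pairs, and mt-Nd3 with Gm28438 is the exception, at 53 against 21321 UMIs in Olaparib + LLY-283.

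Gm28438 followed the mitochondrial mRNAs across cells. It had 1.92 UMIs per 100 mitochondrial mRNA UMIs in tumour cells, 1.81 in macrophages, 1.85 in neutrophils and 1.85 in fibroblasts of Olaparib + LLY-283, and 2.77, 2.74, 2.82 and 2.88 in the same classes of Combo. In counts per 1e6 UMIs (CPM) that are not mitochondrial, it rose from 42.6 in cells under 0.5% mitochondrial UMIs to 3173 in cells of 30% to 50% of Olaparib + LLY-283, and from 50.6 to 1880 in cells of 20% to 30% of Combo. From 50% it was lower, at 1497 and 1416, but the value of Olaparib + LLY-283 came from 6 UMIs in 14 cells. The 3173 came from 40 UMIs in 30 cells, so a fall in that library is uncertain. Over tumour cells with at least 5000 UMIs, the Spearman correlation of its share of all UMIs with that of mt-Cytb was 0.42 (8660 cells, Olaparib + LLY-283) and 0.69 (2527 cells, Combo), where mt-Nd1 with mt-Cytb gave 0.67 and 0.73. With the nuclear-encoded mRNAs Eef1a1 and Atp5b, a translation factor and a complex V subunit, Gm28438 gave -0.13 and 0.05 in Olaparib + LLY-283 and -0.26 and 0.03 in Combo. The cells of a library share its depth, and these correlations are descriptions. Counting Gm28438 as mitochondrial left the direction of the difference in rRNA share between the libraries, given later, the same in all 4 classes compared.

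The tRNAs, which a poly(A)-primed library is not designed to capture, had 2917 UMIs (0.172% of the mitochondrial UMIs) in Olaparib + LLY-283 and 2266 (0.0849%) in Combo. Over both libraries together mt-Tc had the most with 438 and 263 UMIs, followed by mt-Ts2 with 427 and 250, mt-Tm, which ranked first in Combo, with 349 and 311, mt-Ta with 268 and 201 and mt-Tt with 222 and 139. mt-Tk, mt-Ty and mt-Tl2 had at most 9 UMIs in either library. The 2 tRNAs with the most UMIs over both libraries, for cysteine and serine, are shown as transcripts for scale, since their whole length is 66 and 59 bases (chrM:5192-5257, minus strand, and chrM:11613-11671, plus strand).
mt-Tc: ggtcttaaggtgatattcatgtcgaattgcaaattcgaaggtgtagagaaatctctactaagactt
mt-Ts2: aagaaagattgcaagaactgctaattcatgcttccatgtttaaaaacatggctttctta

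The cell classes differed in the make-up of their mitochondrial UMIs. Among the 4 classes compared, the rRNA share was lowest in tumour cells, at 31.3% (31.2 to 31.4) in Olaparib + LLY-283 and 26.1% (26.0 to 26.1) in Combo. Fibroblasts had 40.4% (39.7 to 41.2) and 28.1% (27.5 to 28.7), macrophages 46.9% (46.4 to 47.4) and 37.0% (36.7 to 37.3), and neutrophils 66.4% (65.7 to 67.1) and 80.4% (80.1 to 80.6). The order of these 4 totals was the same in both libraries, with no overlap of the counting intervals within a library, but the classes differ in UMIs per cell. At a like number of UMIs the order of tumour cells, fibroblasts and macrophages did not hold throughout. In Combo, tumour cells had 52.3% and macrophages 44.0% among cells of 5000 to 10000 UMIs, 39.0% and 35.4% at 10000 to 20000, and 33.3% and 28.4% at 20000 to 40000, where fibroblasts had 27.5%. In Olaparib + LLY-283, tumour cells had 35.8% and macrophages 33.8% at 5000 to 10000 UMIs, whereas at 2000 to 5000 UMIs they had 44.6% and 46.7%. Neutrophils lay above macrophages in each bin of UMIs that held at least 20 cells of both classes. At 1000 to 2000 UMIs, neutrophils and macrophages had 69.1% and 56.4% in Olaparib + LLY-283, and 81.0% and 67.4% in Combo. At 500 to 1000 UMIs of Combo, 22 tumour cells lay above the neutrophils, at 90.3% and 84.5%. In the smaller classes the rRNA share was 61.6% and 48.9% in T or NK cells, 62.3% and 88.6% in skeletal muscle cells (78.0% in the 48 of 52 Combo cells under 20% mitochondrial UMIs), 39.2% and 51.0% in endothelial cells and 26.9% and 20.4% in osteoclasts, from 11 to 52 cells each.

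**Figure D3:**
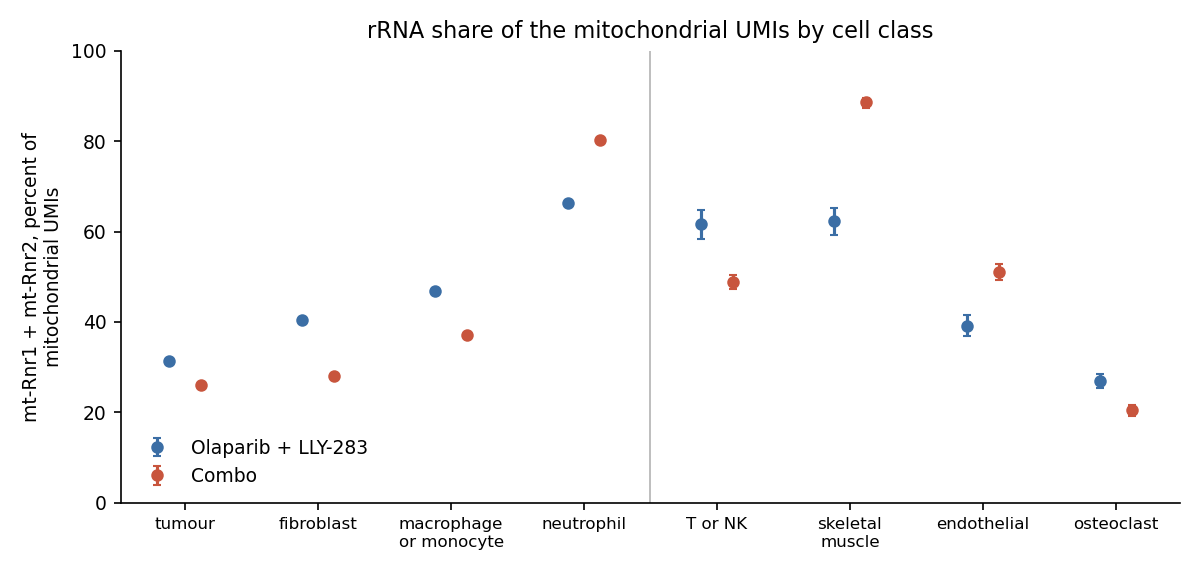
Percent of the mitochondrial UMIs on mt-Rnr1 and mt-Rnr2 by cell class and library, with exact 95% binomial intervals that cover counting error only; classes right of the grey line had under 50 cells in a library. Neutrophils lie highest among the 4 large classes, at 66.4% and 80.4%, and tumour cells lowest.

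Within the mRNAs alone, macrophages had less mt-Cytb and more mt-Nd4 than tumour cells. mt-Cytb made up 36.5% (35.8 to 37.2) of the mitochondrial mRNA UMIs of macrophages and 41.7% (41.6 to 41.8) of those of tumour cells in Olaparib + LLY-283, and 34.7% (34.3 to 35.1) and 39.8% (39.7 to 39.9) in Combo. mt-Nd4 made up 14.8% (14.3 to 15.3) in macrophages and 12.1% (11.99 to 12.12) in tumour cells of Olaparib + LLY-283, and 16.8% (16.5 to 17.1) and 13.4% (13.3 to 13.5) in Combo. The same held among cells of 2000 to 5000 UMIs, where mt-Nd4 was 15.4% in macrophages and 11.8% in tumour cells of the first library and 16.2% and 12.7% in the second. Fibroblasts had mt-Nd4 at 14.2% and 16.3%, and mt-Cytb at 40.2% and 39.9%. mt-Nd5 was 3.84% and 3.64% of the mRNA UMIs in macrophages against 2.52% and 2.37% in tumour cells.

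The rRNA share also went with the number of UMIs per cell. In tumour cells of Olaparib + LLY-283 it fell from 44.6% in cells of 2000 to 5000 UMIs to 35.8%, 30.6%, 25.9% and 21.5% in the bins that start at 5000, 10000, 20000 and 40000 UMIs. In tumour cells of Combo it was 60% in cells of 2000 to 5000 UMIs, and the 4 bins from 5000 UMIs gave 52.3%, 39.0%, 33.3% and 24.1%. Thus, at a like number of UMIs Combo was higher in all 5 bins that both libraries filled with at least 20 cells, although its tumour class as a whole was lower. Macrophages did the same, with 56.4%, 46.7% and 33.8% in the bins that start at 1000, 2000 and 5000 UMIs of Olaparib + LLY-283 and 67.4%, 58.9% and 44.0% in those of Combo.

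**Figure D4:**
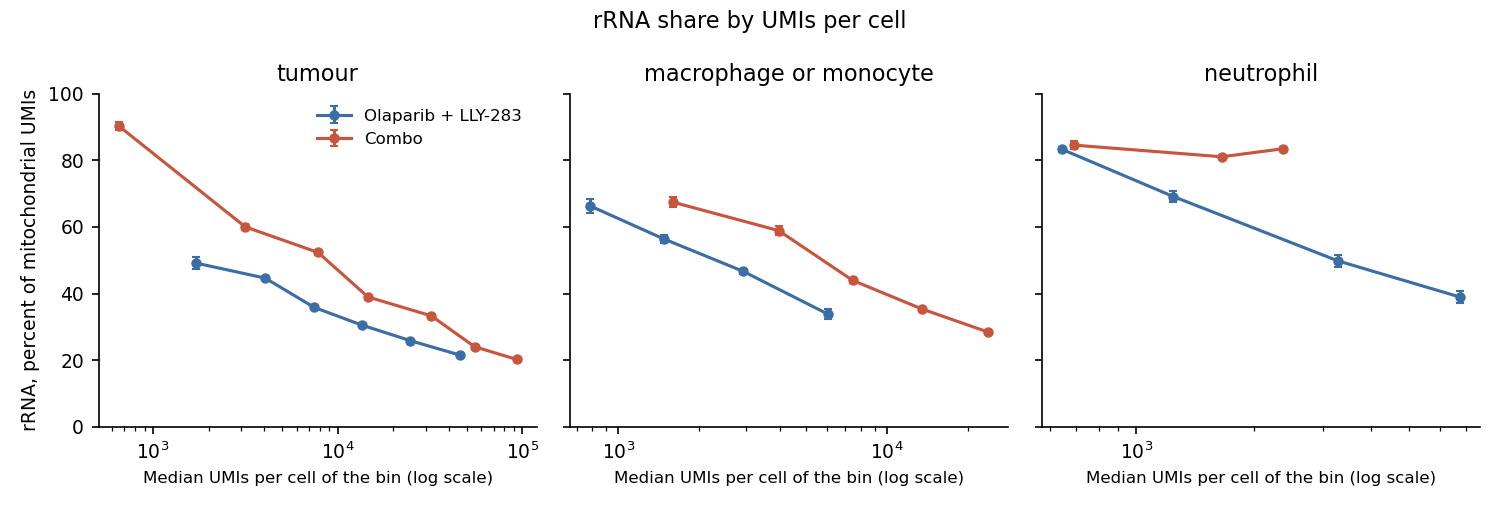
rRNA share of the mitochondrial UMIs against the median UMIs per cell (log scale) in bins of UMIs per cell, for tumour cells, macrophages or monocytes, and neutrophils; bars are exact 95% binomial intervals. In tumour cells and macrophages both lines fall and the Combo line lies above; in neutrophils the Combo points stay between 81.0% and 84.5%.

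Ranking the cells by UMIs within their own library gave another picture. In the fifth of tumour cells with the fewest UMIs the rRNA share was 42.1% in Olaparib + LLY-283 and 42.4% in Combo, and in the fifth with the most it was 26.0% and 20.4%. By rank, Combo was thus lower in each of the 4 groups above the lowest (35.9%, 33.2%, 30.9% and 26.0% against 30.3%, 26.5%, 23.0% and 20.4%), the opposite of the order at a like number of UMIs. When each cell was thinned to 1000 UMIs, the rRNA share of tumour cells was 34.9% and 35.0% (11 and 22 cells too shallow), and that of macrophages 50.5% and 49.0% (103 and 17 cells). Thinning leaves the expected make-up within each cell unchanged and only alters how much each cell counts in the sum. It thus cannot remove a link between depth and make-up. Sequencing depth per cell, RNA content per cell and treatment cannot be told apart here, and no direction for an effect of the antibody on the rRNA share can be read from the class totals.

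In neutrophils the higher rRNA share of Combo rested on 145 cells. In Olaparib + LLY-283, the 145 neutrophils with the most UMIs had an rRNA share of 45.9%, while the other 4 groups of this size, ranked by UMIs, lay between 81.2% and 85.1%. In Combo all 5 groups lay between 78.2% and 83.6%. The summed level of the 9 neutrophil markers was 10786 CPM of non-mitochondrial UMIs in those 145 cells and 86495 to 103244 in the other groups, and no neutrophil marker was at 0. The 7 tumour markers, of which 3 were highest in the tumour class, summed to 265 CPM in those 145 cells, against 357 to 498 in the other groups and 1069 in tumour cells, and the 9 fibroblast markers to 864, against 254 to 473 in the other groups. Over both libraries, 1866 neutrophils by markers fell in neutrophil clusters, 79 in tumour clusters and 17 in macrophage clusters. How many of these were among the 145 was not counted, and what the 145 cells are was not tested. Without the fifth with the most UMIs in each library, the rRNA share was 83.7% in Olaparib + LLY-283 and 81.6% in Combo, and with neutrophils taken from clusters instead of marker UMIs it was 78.1% and 80.2%.

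The level of all mitochondrial UMIs differed less between classes than their make-up. Mitochondrial UMIs were 1.06% of all UMIs in tumour cells of Olaparib + LLY-283 and 1.22% in those of Combo, with medians over cells of 1.04% and 1.16%. Macrophages had 1.42% and 1.62%, fibroblasts 1.33% and 1.32%, and neutrophils 1.99% and 2.44%. The neutrophil medians were 1.005% and 1.024%, and the higher summed value of the Combo neutrophils reversed among cells under 20% mitochondrial UMIs (1.71% and 1.69%) and without the fifth with the most UMIs.

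Per gene, Combo was compared with Olaparib + LLY-283 in CPM of all UMIs, with a 1.5-fold difference and at least 100 UMIs over both libraries in the class as the limits of a call. In tumour cells, 25 of the 37 genes had enough UMIs, none was higher by 1.5-fold (4.43% of all 13743 genes were), and 5 were lower (2.42% of all genes were). The 12 mRNAs with enough UMIs were all higher in Combo by less than that, from 1.05-fold for mt-Nd6 to 1.44-fold for mt-Co3. mt-Cytb stood at 3042 CPM (3032 to 3052) and 3572 CPM (3562 to 3583), mt-Nd2 at 842 and 1158, and mt-Nd4 at 878 and 1204. In these class totals the rRNAs differed less, with mt-Rnr1 at 777 and 795 CPM and mt-Rnr2 at 2555 and 2376. The 2 tumour classes had medians of 10107 and 48118 UMIs per cell. Among tumour cells of 20000 to 40000 UMIs, mitochondrial UMIs were 0.957% and 1.42% of all UMIs. Of these mitochondrial UMIs, the rRNAs held 25.9% and 33.3%. At that number of UMIs the rRNAs together thus differed more than the mRNAs together.

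All 5 lower genes in tumour cells were tRNAs, and the median log2 ratio was 0.29 over the 12 mRNAs, -0.51 over the 11 tRNAs and 0.06 over all genes. mt-Tc was at 2.90 CPM (2.60 to 3.22) in Olaparib + LLY-283 and 1.55 (1.34 to 1.78) in Combo, and mt-Ts2 at 2.71 (2.42 to 3.02) and 1.42 (1.23 to 1.64). mt-Tt, mt-Td and mt-Ta were at 0.528-fold, 0.495-fold and 0.635-fold, and of the 11 tRNAs with enough UMIs 10 had a ratio under 1, with mt-Tf at 1.07-fold as the exception. This direction did not hold at each number of UMIs per cell. Tumour cells of 5000 to 10000 UMIs held 624 tRNA UMIs among 27498313 UMIs and 27 among 511176, higher in Combo. At 10000 to 20000 they held 946 among 51936611 and 54 among 2160431, also higher. At 20000 to 40000 they held 505 among 29531649 and 277 among 19069887, lower in Combo. At 40000 to 80000, 60 among 5245026 and 930 among 78832494 were nearly equal. Per 10000 mitochondrial mRNA UMIs, tumour cells of 20000 to 40000 UMIs held 24.2 tRNA UMIs (22.1 to 26.4) in Olaparib + LLY-283 and 15.4 (13.6 to 17.3) in Combo. The intervals of these values did not overlap, but there is 1 library a group. In cells of 5000 to 10000 UMIs the values were 30.0 (27.7 to 32.4) and 23.6 (15.5 to 34.3), which overlapped. The intervals also overlapped at 2000 to 5000 UMIs (21.4 to 32.6 and 2.98 to 28.0) and at 10000 to 20000 (23.5 to 26.8 and 16.5 to 28.7). At 40000 to 80000 they overlapped too (13.7 to 23.1 and 12.6 to 14.4). Combo neutrophils went the other way, with 69.7 tRNA UMIs per 10000 mRNA UMIs from 97 UMIs, against 31.5 from 21 UMIs, but per 10000 mitochondrial UMIs their intervals overlapped, at 13.6 (11.0 to 16.6) and 10.6 (6.53 to 16.1). Of the 21 UMIs, 16 were in the 145 neutrophils with the most UMIs.

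In macrophages 12 of the 37 genes had enough UMIs, of which 1 was higher by 1.5-fold (5.61% of 7687 genes were) and none lower (5.03% were). mt-Nd4 was that gene, at 1116 CPM (1074 to 1159) and 1714 CPM (1682 to 1746), and mt-Nd2 at 1.49-fold lay just under the limit. The call of mt-Nd4 was lost without doublets (log2 ratio 0.57, against 0.62), in clusters (0.58) and with the median ratio of all genes set to 1 (0.56). Both rRNAs had ratios under 1, at 0.83-fold for mt-Rnr1 and 0.92-fold for mt-Rnr2, and 9 of the 10 mRNAs had ratios over 1. Among macrophages of 5000 to 10000 UMIs, however, mitochondrial UMIs were 1.17% and 1.68% of all UMIs. The rRNAs held 33.8% and 44.0% of these mitochondrial UMIs, so their summed level was higher in Combo there. In neutrophils 10 genes had enough UMIs, of which 1 was higher (25.2% of 4417 genes were) and 2 were lower (36.5% were). mt-Rnr1 was higher at 4227 and 6356 CPM, and mt-Nd1 (1330 and 865 CPM) and mt-Cytb (2685 and 1631 CPM) were lower. These shares lie under those of all genes, and without the fifth of neutrophils with the most UMIs all 3 calls were lost or turned, with log2 ratios of -0.63 for mt-Rnr1, -0.17 for mt-Nd1 and -0.10 for mt-Cytb.

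The nuclear-encoded subunits of the same complexes served as a comparison, in CPM of non-mitochondrial UMIs. Of 81 nuclear subunit genes with enough UMIs in tumour cells, none was 1.5-fold higher (4.48% of all genes were) or lower (2.38% were), and their median log2 ratio was 0.05, against 0.06 for all genes. The widest ratios were Ndufb4 of complex I (34.4 and 48.9 CPM) and Cox6a2 of complex IV (0.359 and 0.512 CPM) upwards, and Ndufa4l2 (1.60 and 1.21 CPM) and Cox7a2l (299.0 and 248 CPM) downwards. In macrophages 1 of 78 was higher, Sdhd of complex II at 57.6 and 91.0 CPM (5.72% of all genes were higher), and none was lower (5.0% were). That call was lost in clusters and without doublets. Cox7a1 was at 11.4 and 17.0 CPM, Cox8a at 1324 and 1076 CPM, and Ndufs6 at 220 and 183 CPM, all within 1.5-fold.

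In neutrophils 57 of 74 nuclear subunit genes were lower in Combo (36.4% of all genes were) and none was higher (25.4% were). Their summed level was 20921 CPM in Olaparib + LLY-283 and 12193 CPM in Combo, the median log2 ratio was -0.84, and that of all genes was -0.25. Ndufa9 (61.2 and 20.4 CPM) and Ndufv2 (120 and 50.2 CPM) had the lowest ratios, while Cox6a1 (147 and 131 CPM) and Ndufa1 (92.8 and 87.1 CPM) had the highest. Without the fifth of neutrophils with the most UMIs, 18 of 66 genes were lower, beside 12.1% of all genes, and the medians were -0.39 and 0.14. In neutrophils from clusters, 20 of 69 were lower, beside 14.9%. S100a8, a calcium-binding protein abundant in neutrophils, was at 15183 CPM in the Olaparib + LLY-283 neutrophils and 33424 CPM in the Combo neutrophils, and Krt8 at 280 and 183 CPM. Gm42418, a locus that overlaps nuclear ribosomal RNA, was at 2165 and 5287 CPM. The part of other cells' RNA and of RNA quality in this difference was not tested.

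Genes that transcribe, process and stabilise mitochondrial RNA, listed together with some that maintain mitochondrial DNA (such as Ssbp1), gave few calls in tumour cells and macrophages. In tumour cells 1 of 36 was higher by 1.5-fold, Pnpt1, a mitochondrial polynucleotide phosphorylase, at 15.6 and 23.9 CPM (4.48% of all genes were higher), and none was lower (2.38% were). Tfb1m was at 3.13 and 4.30 CPM, Fastkd3 at 8.23 and 6.36 CPM, and Fastkd5 at 3.92 and 3.05 CPM. In macrophages none of 16 was called higher (5.72% of all genes were) or lower (5.0% were), with Tfam, the mitochondrial transcription and packaging factor, at 14.4 and 20.9 CPM, Pnpt1 at 10.6 and 15.0, Tbrg4 at 15.2 and 10.4 and Ssbp1 at 77.5 and 63.1. In neutrophils 5 genes had enough UMIs, of which 4 were lower (36.4% of all genes were) and 1 higher (25.4% were). Without the fifth with the most UMIs, 2 of 4 were lower, beside 12.1% of all genes, and 1 was higher, beside 21.9%. Rexo2 was at 125 and 55.1 CPM, Ssbp1 at 74.4 and 36.9, Slirp at 123 and 72.0, and Angel2, the higher one, at 30.6 and 51.6.

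Cells on either side of the 20% limit differed in which mitochondrial RNAs they held. This limit uses the mitochondrial total, so only the make-up of that total is compared. The rRNAs are part of the total, and a cell can pass the limit through its rRNA UMIs. The rRNA share is thus not independent of the limit, nor of the bins of the percent given below. In Olaparib + LLY-283, 81 cells at or over 20% had an rRNA share of 78.9% (78.3 to 79.4), against 33.9% (33.8 to 33.9) in the 16029 cells under it. In Combo, 1582 cells at or over 20% had 91.3% (91.2 to 91.3), against 28.7% (28.6 to 28.7) in 5956 cells. Over single cells with at least 50 mitochondrial UMIs, the median rRNA share was 86.5% over and 31.6% under the limit in the first library and 94.9% and 27.5% in the second. Of the 1582 Combo cells over the limit, 1279 (80.8%) had more than 90% of their mitochondrial UMIs on the 2 rRNAs, against 121 of 3994 (3.03%) under it.

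Cells over the limit also held few UMIs, with medians of 656 and 746 against 7414 and 14413.5, and 67 of the 81 and 1515 of the 1582 had no cell class. They also held Gm42418 at 9751 and 24885 CPM of non-mitochondrial UMIs, where tumour cells, the lowest class, held 908 and 1707. Neutrophils held 2165 and 5287, and endothelial cells 7198 and 9024. The part of RNA quality was not tested. Among cells of 500 to 2000 UMIs the rRNA share was 78.9% over and 58.9% under the limit in Olaparib + LLY-283, and 92.2% and 68.7% in Combo. Within neutrophils it was 88.9% (14 cells) and 62.4% in the first library and 90.7% (31 cells) and 75.3% in the second. The neutrophils of the first library include the 145 with the most UMIs, at 45.9%, and the other groups by rank lay at 81.2% to 85.1% with cells on both sides of the limit included, so the size of that difference rests in part on these cells. In the 19 tumour cells of Combo over the limit it was 70.6%, against 25.8% in those under it. The direction was thus the same in each class and range given here, with a smaller size among cells with few UMIs and in neutrophils.

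The change was gradual from 1% mitochondrial UMIs upwards, but not below. Under 0.5% the rRNA share was 33.4% in Olaparib + LLY-283 and 30.7% in Combo, and at 0.5% to 1% it was 29.7% and 25.5%. In Combo the rRNA share was 25.2% in cells of 1% to 2% mitochondrial UMIs, 37.3% at 2% to 5%, 59.7% at 5% to 10%, 63.5% at 10% to 20%, 80.8% at 20% to 30%, 90.8% at 30% to 50% and 93.6% from 50%. In Olaparib + LLY-283 the same bins gave 32.3%, 43.1%, 54.6%, 58.7%, 66.7%, 79.6% and 91.6%. The difference between neighbouring bins at the 20% limit was smaller than that at 5% in Combo and smaller than that at 30% in Olaparib + LLY-283, so these data show no step particular to the limit. mt-Rnr1 gained on mt-Rnr2 over the same range, from 0.32 UMIs per mt-Rnr2 UMI at 1% to 2% to 0.64 from 50% in Combo and from 0.29 to 0.65 in Olaparib + LLY-283.

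**Figure D5:**
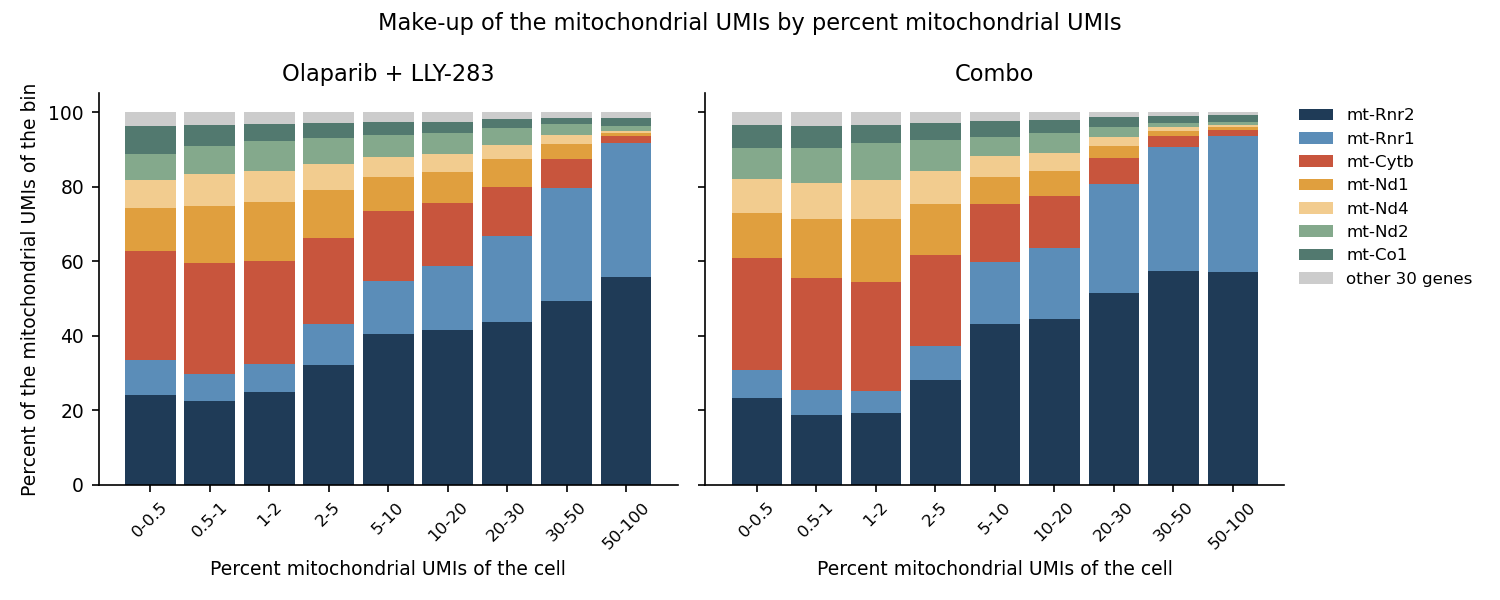
Make-up of the mitochondrial UMIs (stacked, percent of the bin's total) in bins of the percent of mitochondrial UMIs of the cell, for each library. The rRNA part (both blues) grows from 25.2% (Combo) and 32.3% (Olaparib + LLY-283) at 1% to 2% to 93.6% and 91.6% from 50%, while mt-Cytb (red) shrinks from 29.2% and 27.7% to 1.69% and 2.07%.

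The make-up of the mRNA UMIs differed between these bins too. The bins hold different cells, with medians of 31315.5 UMIs at 1% to 2% and 986.5 from 50% in Combo. Within Combo tumour cells, mt-Co1 was 7.08% of the mRNA UMIs under 20% and 10.3% in the 19 cells over it, and mt-Cytb 39.8% and 38.8%. Within Combo neutrophils mt-Co1 was 11.2% and 20.6%, and mt-Cytb 34.9% and 30.6%. Within the mRNA UMIs of Combo, mt-Co1 went from 6.72% (6.67 to 6.77) at 1% to 2% mitochondrial UMIs to 27.2% (26.6 to 27.8) from 50%, mt-Atp8 from 0.945% to 5.92% and mt-Nd5 from 2.46% to 5.82%. Over the same range mt-Cytb went from 39.0% to 26.5%, mt-Nd1 from 22.8% to 11.98% and mt-Nd4 from 13.9% to 9.70%. In Olaparib + LLY-283, where 14 cells lay from 50%, mt-Co1 went from 6.76% to 25.8% (21.9 to 30.0), mt-Atp8 from 1.07% to 8.39%, mt-Cytb from 41.0% to 24.95% and mt-Nd1 from 23.6% to 8.60%. mt-Co1 was also higher at the other end, with 11.4% and 9.05% of the mRNA UMIs in cells under 0.5%. The share of mt-Nd2 moved less, from 13.2% to 11.7% in Combo and from 11.8% to 15.7% in the other.

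Across tumour cells with at least 5000 UMIs, mt-Cytb varied more closely with the complex I mRNAs of most UMIs than with the rRNAs. The Spearman correlation with mt-Cytb, on shares of all UMIs, was 0.67 for mt-Nd1, 0.67 for mt-Nd4 and 0.61 for mt-Nd2 in Olaparib + LLY-283 (8660 cells), and 0.73, 0.85 and 0.72 in Combo (2527 cells). mt-Rnr2 gave 0.36 and 0.40 with mt-Cytb, and mt-Rnr1 0.16 and 0.27. mt-Co1 gave 0.21 and 0.36, no more than mt-Rnr2. Both rRNAs with each other gave 0.60 and 0.70. mt-Nd6, the mRNA of the minus strand, gave -0.01 and 0.08, at a level of 22.2 and 23.3 CPM in the tumour class. These values share their denominators and libraries, and low counts lower them.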

How the data were processed

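Single-cell RNA counts of 2 libraries were used, 1 per group. The authors made the deposited counts, raw UMIs per gene and cell, with Cell Ranger (6.1.2 per the file headers) on mm10. The submitters' processing notes also name bcl2fastq 5.0.1 and Seurat 4.1.0. Depth was 147214934 and 162522700 UMIs. The 37 genes and all gene lists were chosen with earlier results of these data known. Cells with at least 200 genes were classed by marker UMIs per 10000 non-mitochondrial UMIs, with at least 3 marker UMIs. A class needed at least 3 of its markers at 1 or more each, and fibroblasts needed 4. Tumour cells instead needed a sum of 3 or more over the tumour markers, which 1 marker could reach. A cell with the tumour call was not called a fibroblast. At a doubled marker minimum 3749 and 1067 cells changed class. Scrublet's automatic threshold called 0 doublets, so none were removed from the main results, and leaving out the 2055 and 284 highest scores was an alternative. Neighbour-graph clusters (leidenalg 0.10.2, scanpy 1.11.5) were another. UMIs were summed per class. Shares have exact Clopper-Pearson and counts exact Poisson 95% intervals (scipy 1.17.1), which cover counting error only. Ratios needed at least 100 UMIs, and 1.5-fold was called. All 55450 identifiers matched GENCODE M21, whose transcripts were searched for copies with blastn 2.17.0 (at least 85% identity over 100 bases) and for exact 90-base windows. The 15 rRNAs and mRNAs and the 5 tRNAs with the most UMIs were named, as were, per nuclear list and class, the 2 genes at each end of the ratios. Other tRNAs were named after their values were seen. The ratio steps were tested on simulated data.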

Additional observations from a re-analysis of the deposited data

Results flagged for a closer look

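The difference in rRNA share of the mitochondrial UMIs, Combo minus Olaparib + LLY-283, went in opposite directions in different cell classes. It was -5.255 percentage points in tumour cells, -9.885 in macrophages or monocytes and -12.32 in fibroblasts, but 13.95 in neutrophils. With 1 library per group the difference between classes was not tested. The neutrophil value rests on the fifth of the cells with the most UMIs, without which it was -2.168, and the tumour and macrophage values turned positive among cells of a like number of UMIs (7.396 at 20000 to 40000 UMIs and 10.2 at 5000 to 10000 UMIs). The fibroblasts had medians of 4079 and 23233.5 UMIs per cell. No bin of UMIs held at least 20 fibroblasts in both libraries, so their value could not be compared at a like number of UMIs.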

How the results depend on the processing

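No paired analysis was possible because each group is 1 library, and no library could be left out. Each mean over cells below takes only cells with at least 50 mitochondrial UMIs. Among neutrophils under 20% mitochondrial UMIs these were 119 of 712 and 158 of 1336 cells. For the rRNA share, Combo minus Olaparib + LLY-283 in percentage points, tumour cells gave -4.635 as a mean over cells, -5.561 under 20% mitochondrial UMIs, -5.619 without doublets, -5.87 at the doubled marker minimum, -5.666 in clusters, -5.372 with Gm28438 counted and 7.396 at 20000 to 40000 UMIs. In the same order, macrophages gave -6.784, -10.98, -12.15, -7.478 and -12.45, then 10.2 at 5000 to 10000 UMIs. Neutrophils gave 16.1, 12.89, 9.513, 20.45 and 2.049, then 11.94 at 1000 to 2000 UMIs and -2.168 without the fifth with the most UMIs, where the shares of complexes I and III also reversed, to 1.105 and 1.042. Fibroblasts gave -10.24 as a mean over cells, -5.501 at the doubled minimum and -11.04 in clusters. Cells over minus under the limit gave 34.23, 50.84 and 57.45 at limits of 10%, 30% and 50% in Olaparib + LLY-283 and 61.38, 62.26 and 56.86 in Combo. The mean over cells gave 40.95 and 57.81, cells of 500 to 2000 UMIs 19.93 and 23.54, neutrophils 26.44 and 15.37, cells of no class 34.84 and 56.73, and Combo tumour cells 44.82. The log2 ratio of the percent of mitochondrial UMIs in tumour cells was 0.1843 under 20%, 0.1777 at the doubled minimum, 0.1405 in clusters, 0.5664 at 20000 to 40000 UMIs, 0.1592 as a median and 0.3887 thinned. In macrophages it was 0.1497, 0.2518 and 0.1151 for the first 3 of these, 0.1064 without doublets, 0.5192 at 5000 to 10000 UMIs, 0.1412 as a median and 0.4445 thinned. In neutrophils it was -0.01892 under 20%, 0.2119 without doublets, 0.3958 at the doubled minimum, -0.2405 in clusters, -0.6677 at 1000 to 2000 UMIs, -0.348 without the neutrophils of most UMIs, 0.02631 as a median and -0.003828 thinned. Thinning left out 558 and 120 neutrophils as too shallow and kept 168 and 1247. The 168 include the 145 Olaparib + LLY-283 neutrophils with the most UMIs. Part of these 145 are also among the 73 cells of 1000 to 2000 UMIs. The neutrophil values thinned and at 1000 to 2000 UMIs thus rest largely on them. The log2 ratio of mt-Rnr1 in neutrophils was -0.4838 in clusters and -0.6318 without the neutrophils of most UMIs. The 5 mitochondrial genes called lower in tumour cells stayed at 5 under every alternative run. No calls per gene were made among cells of a like number of UMIs, in any class. In macrophages the 1 called higher became 0 without doublets, in clusters and with the median gene ratio set to 1, and 2 at the doubled minimum. In neutrophils the 1 higher became 0 under 20%, without doublets, in clusters and without the neutrophils of most UMIs, and 2 at the doubled minimum and with the median ratio set to 1, and the 2 lower became 1 without doublets and 0 in clusters and with the median ratio set to 1. Of the nuclear subunit genes, 1 rather than 0 was higher in tumour cells and in neutrophils, and 1 lower in macrophages, at a minimum of 20 UMIs, 1 was lower in tumour cells without doublets, and the 1 higher in macrophages became 0 at a minimum of 1000 UMIs, in clusters and without doublets. The 57 lower in neutrophils became 18 at a minimum of 1000 UMIs, where 21 had enough, 20 in clusters and 18 without the neutrophils of most UMIs. The causes were not tested. The neutrophil, UMI-range and Gm28438 alternatives were chosen after seeing the data. Few tRNA UMIs and 1 library per group limit all of these values.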
